A study of Mus musculus with 2 samples.

Results

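The cytosolic ribosomal proteins are the proteins that, with ribosomal RNA, build the large and the small subunit of the ribosome outside mitochondria. Their genes were taken as the protein-coding genes of GENCODE mouse release M21 whose symbol is Rpl or Rps with a number and at most a trailing letter or l, together with Rplp0, Rplp1, Rplp2 and Rpsa. The S6 kinase genes and pseudogenes were left out. This gave 81 genes, 50 named for the large and 31 for the small subunit, of 15622 genes with at least 1 read in the series. Reads were listed for 80 of them, and 78 had at least 20 reads over both libraries. The other members were Rpl3l with 11 reads, Rpl39l with 5 and Rpl10l, which was not listed.

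The cold library was made from interscapular brown fat of male C57BL/6N mice, 20 weeks old, after 24 h of single housing in the cold at 4 °C, with poly(A)+ RNA pooled from 3 animals. The control library came from the same tissue, strain, sex and age, with the treatment given as ctrl, no pool size given in the sources used here and general housing at 22 to 24 °C. The shared treatment text describes the cold exposure for both samples, which the control label contradicts, and the shared extraction text speaks of eWAT, another fat depot. Native RNA was read on a nanopore from the poly(A) tail, which gives at most 1 read per molecule, and the files hold 1215617 reads for the cold library and 1698124 for the control library.

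Each group is a single library, so nothing here measures the spread between animals, the conditions cannot be tested and no p-values are given. Ranges in parentheses are 95% counting intervals, which compare these 2 libraries only. Ratios are cold over control, scaled by the trimmed mean of M-values (TMM), which put the median of 7529 genes with at least 20 reads at a log2 ratio of 0.00. In bulk tissue, fewer cells of a type and less RNA per cell cannot be told apart. Brown adipocyte markers made up 3.69% of cold reads and 2.74% of control reads, and all 13 listed markers were detected. Ucp1, the uncoupling protein of brown fat, had 14526 reads in the cold library and 14860 in the control library. Its scaled ratio was 1.21 (1.18 to 1.23). Fabp4 held 20787 of the list's 44884 cold reads and 20610 of its 46548 control reads. The list was mixed: 7 markers were higher in the cold library and 2 lower, counting those whose interval excluded 1. Single ratios ran from Adipoq at 0.656 (0.587 to 0.733) to Ppargc1a at 6.03 (3.96 to 9.49). Skeletal muscle markers were at 2047 reads per 1000000 (RPM) in the cold library and 450 in the control library, with intervals above a ratio of 1 for all 16. In cold and control libraries, immune markers were at 171 and 166 RPM, endothelial markers at 693 and 476, fibroblast markers at 254 and 238, and erythrocyte markers at 2259 and 2278. Such sums are not TMM scaled and can hide markers that differ in opposite directions. Of 6 immune markers with at least 20 reads, 2 had intervals above a ratio of 1 and 2 below, from H2-Ab1 at 0.502 to C1qa at 1.91. Of 6 such fibroblast markers, 1 had an interval above and 1 below. Of 11 such endothelial markers, 3 had intervals above and 0 below. Of 4 such erythrocyte markers, 3 had intervals below and 0 above, with a median log2 ratio of -0.20 (-0.02 with total counts). The part of these cell types in the results below was not tested.

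A ribosome carries most of its proteins in a single copy, so their genes are transcribed and translated in a balanced way. In vertebrates many of their mRNAs begin with a C followed by a run of pyrimidines, the 5′ terminal oligopyrimidine (TOP) tract, through which the TOR kinase and the RNA-binding protein Larp1 set their translation. Such control acts on protein output and need not alter the number of mRNA molecules, which is what was counted here.

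Ribosomal protein mRNAs kept close to the same part of the transcriptome in both libraries. They took 2.57% of reads (2.55 to 2.60) in the cold library, with 31284 reads, and 2.49% (2.47 to 2.52) in the control library, with 42311 reads. The difference of 0.0819 percentage points (0.0453 to 0.119) turned to -0.00248 (-0.0547 to 0.0499) when reads of mitochondrially encoded genes were left out of the total. The shares were then 3.64% in the cold library and 3.65% in the control library. After TMM scaling the summed members were 1.10-fold lower in the cold library (1.08 to 1.11), while with total counts the ratio was 1.03 (1.02 to 1.05).

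Gene by gene the differences were small and mostly on the lower side. The 78 members had a median log2 ratio of -0.14, against 0.00 over all genes, and 61 of them lay below 0. The sign depended on the scaling, since the median was 0.04 with total counts, where all genes had a median of 0.18. A scaling moves all genes by the same amount, so the distance of the members' median from that of all genes, -0.14, is the same in each by construction. The interval lay below a ratio of 1 for 32 members, or 41%, where 11.3% of all genes with at least 20 reads did. Among the 818 genes with as many reads as the members, 295 to 2434, the share was 27.8%. The members are themselves among these 818 genes, and among all genes in the other comparisons of this paragraph. The interval lay above a ratio of 1 for 4 members, or 5.13%, where 11.3% of all genes and 26% of those 818 genes did. Of the 28 members with at least 1000 reads, 14 had an interval below, or 50%, where 50% of all genes with at least 1000 reads did, and 3 above, or 10.7%, where 27.3% did. With total counts, the interval lay below a ratio of 1 for 6 of the 78 members and above it for 17. The log2 ratio itself was then under 0 for 34 members. The shares of all genes with such intervals were not counted with that scaling.

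The members also kept together. The standard deviation of their log2 ratios was 0.18, against 0.59 over the 740 other genes in the same range of reads, and their interquartile range was -0.26 to -0.01, against -0.25 to 0.28. A difference of at least 1.5-fold with an interval on the same side of 1 was found for 1 member on the lower side, Rpl39, or 1.28%. On that side 7.44% of all genes with at least 20 reads were past it, and 7.09% of the 818 in the same range of reads, members included. On the higher side it was found for 0 of 78 members, where 8.06% of all genes and 10.8% of those in the same range were past it. Of the 28 members with at least 1000 reads 0 were past it on either side, where 11% of genes with that many reads were lower and 8.44% higher. Across the 78 members, log2 levels in RPM in the cold and in the control library had a Pearson correlation of 0.95 and a Spearman correlation of 0.93. This describes 2 libraries of the same tissue, made from the same kit.

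**Figure D1:**
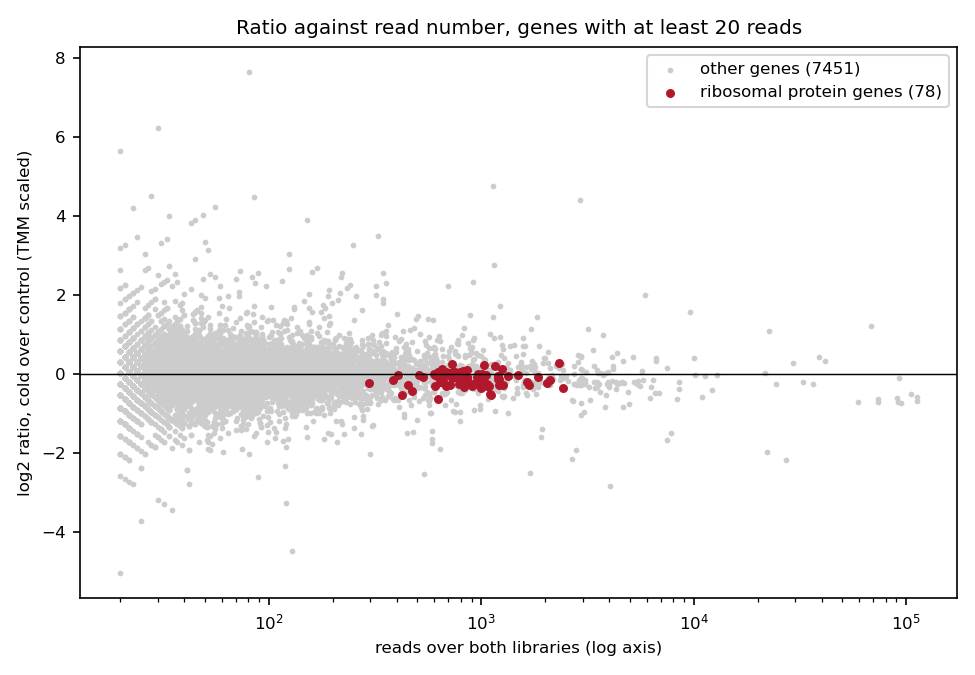
Each point is a gene with at least 20 reads over both libraries, with its reads on a log axis and its log2 ratio of cold over control after TMM scaling. The 78 ribosomal protein genes (red) form a narrow band between -0.62 and 0.28, mostly just under the line at 0 with this scaling, among the other genes (grey).

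The medians of both subunits lay below 0 with TMM scaling, and the difference between them was not tested. The 47 genes of the large subunit had a median log2 ratio of -0.15 (0.03 with total counts), with 20 intervals below a ratio of 1 and 3 above. The 31 genes of the small subunit had a median of -0.11 (0.07 with total counts), with 12 below and 1 above. With totals that leave out mitochondrially encoded genes the medians were -0.02 for the large and 0.02 for the small subunit. Reads of large subunit genes outnumbered those of small subunit genes 1.49-fold in the cold library (18698 and 12586) and 1.49-fold in the control library (25343 and 16968), with large subunit reads given before small.

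**Figure D2:**
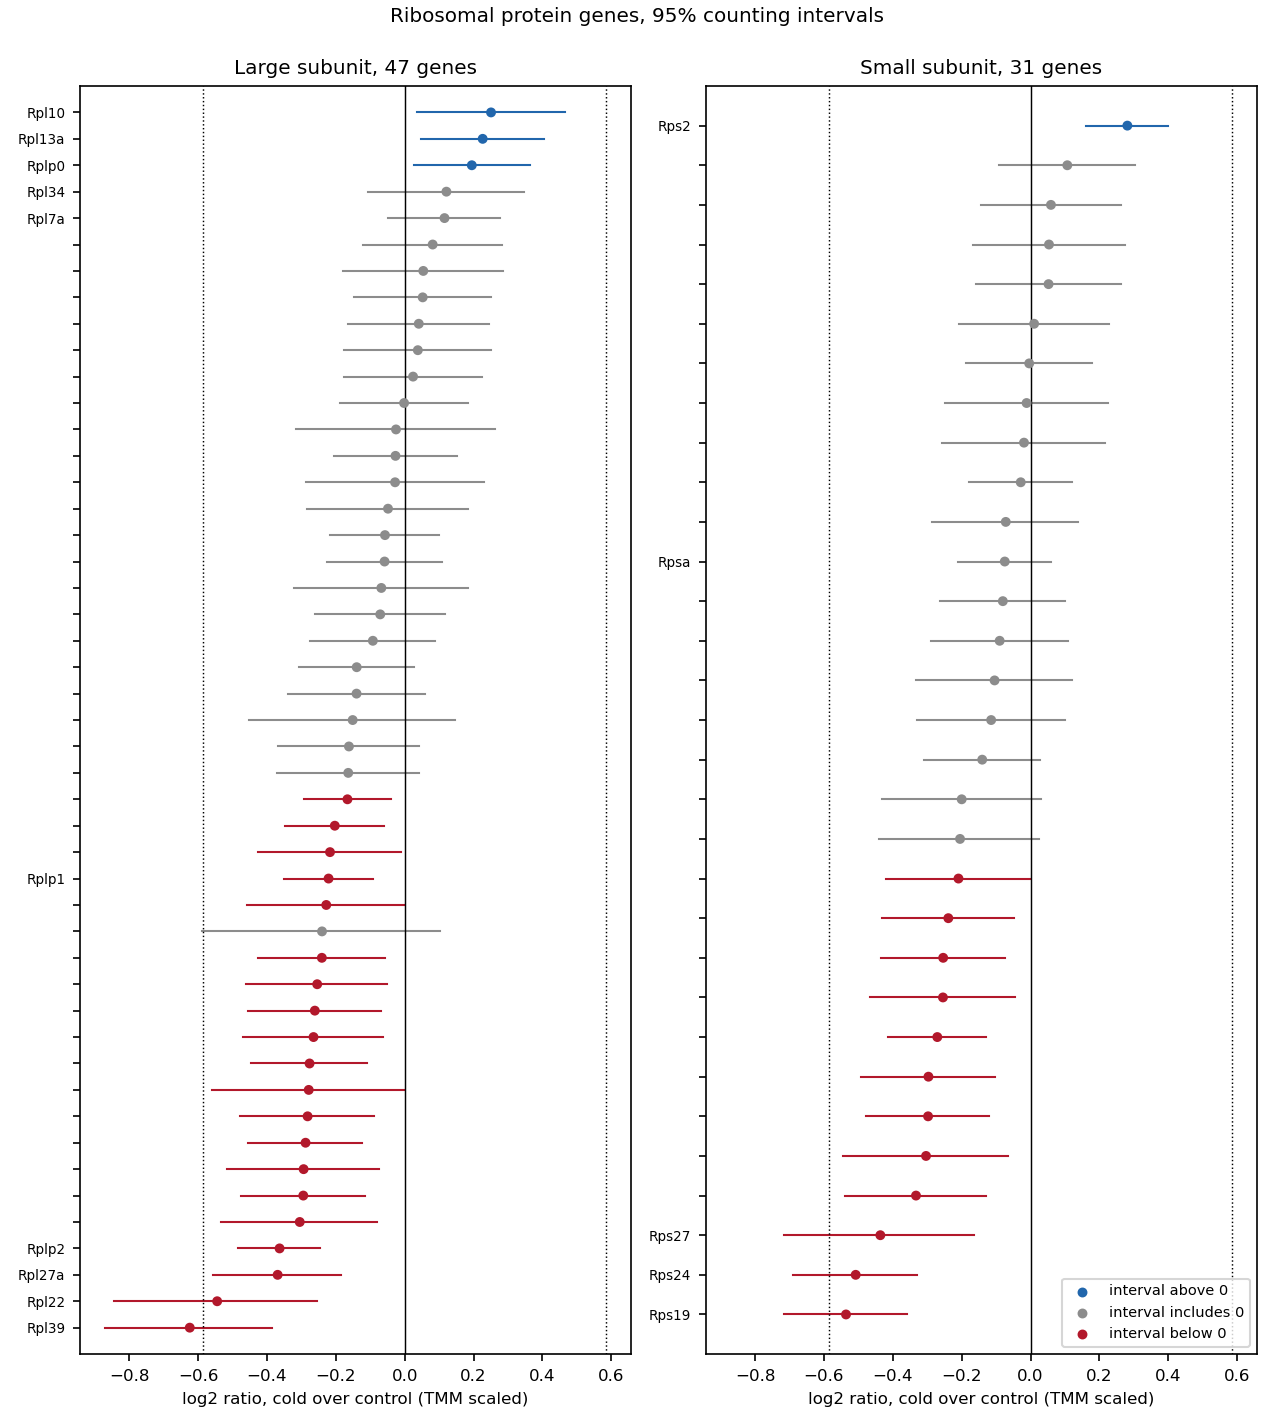
The 78 measured genes of the large (left) and small (right) subunit are ordered by their log2 ratio of cold over control, with 95% counting intervals as lines and the genes at either end, the stalk genes and Rpsa named. Red intervals lie below 0 (32 genes), blue above 0 (4 genes) and grey include 0, and the dotted lines mark a 1.5-fold difference, which the point of Rpl39 alone passed.

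At the lower end stood members of both subunits. Rpl39, a short peptide at the exit tunnel of the large subunit (chromosome X, 37082520 to 37085402), had 216 reads in the cold library and 411 in the control library. That is 1.54-fold lower (1.31 to 1.83) in the cold library and the member with the lowest ratio. Rpl22, an RNA-binding protein of the large subunit (chromosome 4, 152325742 to 152334071), had 151 reads in the cold library and 272 in the control library, 1.46-fold lower (1.19 to 1.79). Rps19, which is needed to process the small subunit's rRNA and is mutated in human Diamond-Blackfan anaemia (chromosome 7, 24884371 to 24889806), had 398 reads in the cold library and 712 in the control library, 1.45-fold lower (1.28 to 1.64). With total counts the log2 ratios were still below 0, at -0.44 for Rpl39, -0.36 for Rpl22 and -0.36 for Rps19. Rps24, another gene of that human disease, had 399 reads in the cold library and 700 in the control library, 1.42-fold lower (1.26 to 1.61). Rps27, a zinc-binding protein of the small subunit, had 176 reads in the cold library and 294 in the control library, 1.35-fold lower (1.12 to 1.64). Rpl27a, of the large subunit, had 386 reads in the cold library and 615 in the control library, 1.29-fold lower (1.14 to 1.47). With total counts their log2 ratios were -0.33 for Rps24, -0.26 for Rps27 and -0.19 for Rpl27a.

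At the upper end were 4 members whose interval lay above a ratio of 1, with read numbers nearly as high in the smaller cold library as in the control library. Rps2, which lies near the mRNA entry of the small subunit (chromosome 17, 24718116 to 24721929), had 1149 reads in the cold library and 1166 in the control library, 1.22-fold higher (1.12 to 1.32) after scaling to the smaller cold library. Rpl10, a protein that joins the large subunit late in its assembly, had 357 reads in the cold library and 370 in the control library, 1.19-fold higher (1.03 to 1.38). Rpl13a, which in humans also represses translation of some inflammatory mRNAs when it is off the ribosome, had 500 cold and 527 control reads, 1.17-fold higher (1.03 to 1.32), and Rplp0, at the base of the stalk, 556 cold and 599 control reads, 1.14-fold higher (1.02 to 1.29). The next members, both of the large subunit, were Rpl34 with 306 reads in the cold and 347 in the control library and Rpl7a with 586 cold and 667 control reads. They had intervals that included 1, at ratios of 1.09 (0.929 to 1.27) and 1.08 (0.968 to 1.21).

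The stalk of the large subunit, where elongation factors dock, is built from Rplp0 at its base and the acidic proteins Rplp1 and Rplp2. Its base and its tips lay on opposite sides of a ratio of 1. Rplp2 had 941 reads in the cold library and 1493 in the control library, 1.29-fold lower (1.19 to 1.40), and Rplp1 had 841 cold and 1209 control reads, 1.17-fold lower (1.07 to 1.27), whereas Rplp0 was on the higher side. With total counts the log2 ratios were -0.18 for Rplp2, -0.04 for Rplp1 and 0.37 for Rplp0. Rpsa, a small subunit protein also known as the laminin receptor, had 806 cold and 1047 control reads, a ratio of 0.949 (0.865 to 1.04).

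The members differed more among themselves in level than between libraries. As a native RNA read stands for a molecule, levels are given in RPM and not divided by transcript length. The median level was 299 RPM in the cold library and 282 in the control library. The lowest was Rpl5, a large subunit protein that carries the 5S rRNA, at 98.7 RPM in the cold library and 103 in the control library. Near-identical copies of Rpl5 held a further 64 cold and 104 control reads, left out here, so its place as the lowest is uncertain. The highest in the cold library was Rps2, at 945 RPM against 687 in the control library, and the highest in the control library was Rplp2, at 774 RPM in the cold and 879 in the control library. Next came Rpl41, which encodes a very short basic peptide, at 726 RPM in the cold and 720 in the control library, and Rplp1, at 692 in the cold and 712 in the control library. The members with the most reads in the cold library were thus, in order, Rps2, Rplp2, Rpl41 and Rplp1, and in the control library Rplp2, Rpl41, Rplp1 and Rps2.

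Among the members and among other genes, the lowest class medians lay in the classes of shortest transcripts. Single members could go otherwise, as Rpl22, near the lower end, had a most abundant transcript of 2051 bases. The most abundant transcript had a median length of 796.5 bases in the members and 2290 bases in 2536 other protein-coding genes with at least 100 reads. Other genes with transcripts of up to 500 bases had a median log2 ratio of -0.20 (28 genes), those of over 500 to 700 bases -0.19 (91 genes), and those over 2500 bases 0.08 (1151 genes). Members of up to 500 bases had a median of -0.23 (12 genes) and those of over 500 to 700 bases -0.20 (17 genes). Between 700 and 1000 bases the order turned, with -0.04 for 26 members and -0.14 for 213 other genes. Over all transcripts of up to 1000 bases the medians were -0.16 for 55 members and -0.16 for 332 other genes, a difference of -0.0067, while 81.8% of these members and 68.1% of these other genes lay below 0. Longer members differed among classes, with -0.10 for 12 members and -0.08 for 370 other genes at over 1000 to 1500 bases, and -0.14 for 7 members and 0.02 for 683 other genes at over 1500 to 2500 bases. The 4 members over 2500 bases had a median of 0.01. All these lengths are those of the annotated transcript and not of the molecules read. The part of length in the members' offset was not tested. Across the 78 members, log2 ratio and log2 length had a Pearson correlation of 0.21 and a Spearman correlation of 0.23, a weak relation.

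**Figure D3:**
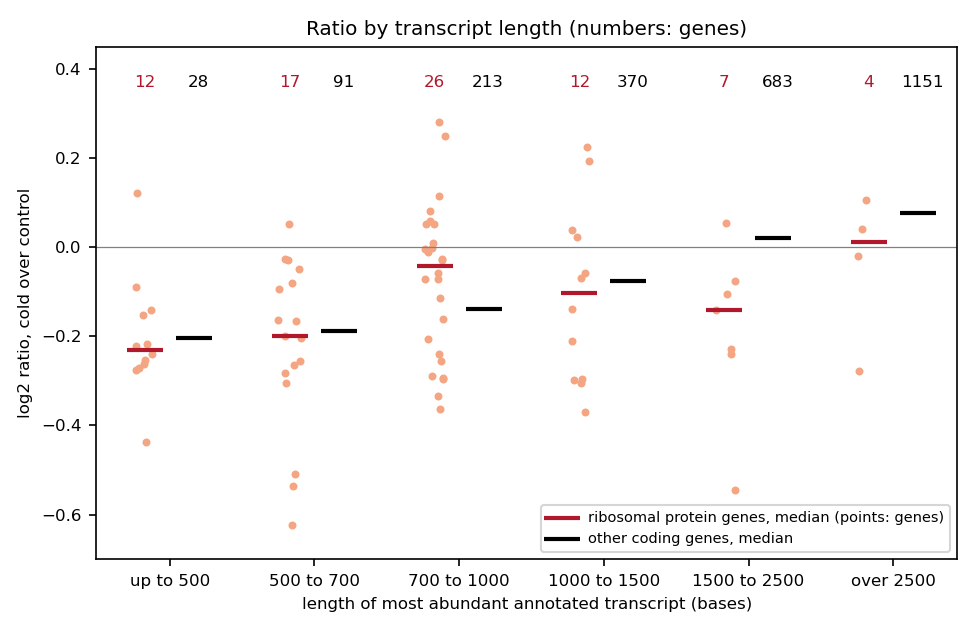
Genes with at least 100 reads are grouped by the length of their most abundant annotated transcript, with the log2 ratio of cold over control on the vertical axis. Short bars are medians of ribosomal protein genes (red, single genes as points) and of other protein-coding genes (black), and the numbers on top count the genes; in both sets the medians of the shortest classes lie near -0.2.

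The TOP tract is what these mRNAs are known for, so the start of the transcript is shown for some of them. These are members at the lower end (Rps27, Rpl27a), at the upper end (Rps2, Rplp0, Rpl34) and paralogs (Rps27l, Rpl3l). The start shown for Rpl27a lay 48 bases from that of its most abundant transcript. RefSeq start sites (GRCm38.p6) were matched by symbol for 58 of the 78 members, taking the start nearest to that of the most abundant transcript. Each window below runs from 15 bases before the annotated start to the 15th base of the transcript, and capitals mark a C followed by at least 4 pyrimidines within 5 bases of the start, where there is one.
Rps27 (chr3:90213634-90213663, minus strand): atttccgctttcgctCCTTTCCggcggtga
Rps27l (chr9:66946071-66946100, plus strand): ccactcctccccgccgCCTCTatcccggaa
Rpl27a (chr7:109519180-109519209, plus strand): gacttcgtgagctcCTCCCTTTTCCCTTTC
Rpl34 (chr3:130730384-130730413, minus strand): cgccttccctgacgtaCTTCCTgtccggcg
Rps2 (chr17:24720048-24720077, plus strand): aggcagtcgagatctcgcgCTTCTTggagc
Rplp0 (chr5:115559452-115559481, plus strand): gtcttcgggtttcgaggaccgcctggttct
Rpl3l (chr17:24727811-24727840, plus strand): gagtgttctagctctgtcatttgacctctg

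Such a tract began exactly at the annotated start in 12 of 58 members, or 20.7%, and in 138 of 5868 other genes with at least 20 reads, or 2.35%. Within 5 bases of the start it was found in 26 members, or 44.8%, and in 20.0% of the other genes. Over all 32851 windows of the table the share was 2.51% at the start and 18.3% within 5 bases. Annotated starts were often off from those of the most abundant transcript, and 19 of the 58 lay within 10 bases of it, so that the share of members with a tract cannot be read from this table. The 26 members with a tract had a median log2 ratio of -0.15 and the 32 without -0.12. Of the 6 members with the lowest ratios, Rpl39, Rps27 and Rpl27a had a tract within 5 bases and Rpl22, Rps19 and Rps24 did not. Of the 6 with the highest, Rps2, Rpl13a, Rpl34 and Rpl7a had one and Rpl10 and Rplp0 did not. The letters CTTCCG on either strand, the core of ETS family sites, were in the 300 bases around the start in 69.0% of members and 36.6% of other genes, and in 16.9% of all windows. TATAAA on the given strand was in 8.62% of members, 4.18% of other genes and 8.32% of all windows. A match describes letters and is not a site.

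Some ribosomal proteins have a second gene copy, and the use of these paralogs was compared as the share of the pair's reads. Rpl3l, the copy of Rpl3 that skeletal muscle and heart use (chromosome 17, 24727820 to 24736143), had 10 reads in the cold library and 1 in the control library. Below the minimum of 20 reads, its ratio of 12.3 (1.75 to 535) is given as a value outside the counts above, and its share of the pair was 3.58% (1.73 to 6.49) in the cold library and 0.243% (0.00616 to 1.35) in the control library. Rpl3 itself had 269 cold and 410 control reads, 1.24-fold lower (1.06 to 1.45). All 16 skeletal muscle markers had intervals above a ratio of 1 in the same comparison, with a median log2 ratio of 2.23, where 11.3% of all genes lay above. Acta1, skeletal actin, had 550 reads in the cold library and 145 in the control library, and the part of muscle RNA in the Rpl3l reads was not tested.

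For the other pairs the interval of the difference between libraries included 0. Rps27l took 60.2% of the reads of Rps27 and Rps27l (55.4 to 64.8) in the cold library, with 266 reads, and 56.2% (52.3 to 60.0) in the control library, with 377. Rpl36al took 52.6% of its pair with Rpl36a (47.2 to 58.0) in the cold library and 50.4% (45.7 to 55.2) in the control library. Rpl22l1, the copy of Rpl22, took 27.1% (21.1 to 33.6) in the cold library and 21.8% (17.6 to 26.6) in the control library, a difference of 5.21 percentage points (-2.05 to 12.8). The share of Rpl7l1 in its pair with Rpl7 was 17.8% in the cold library and 15.8% in the control library, a difference of 1.99 points (-2.94 to 7.01). That of Rps4l, annotated as a transcribed pseudogene, in its pair with Rps4x differed by 0.593 points (-4.89 to 6.23). Rpl39l had 1 read in the cold library and 4 in the control library, and Rpl10l, which is known from testis, was listed in neither library.

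Most members were read mainly as protein-coding transcripts. Of the reads on members, 89.3% (88.9 to 89.6) in the cold library and 88.7% (88.4 to 89.0) in the control library were on such transcripts. Transcripts annotated with a retained intron took 5.88% (5.63 to 6.15) of member reads in the cold library and 6.33% (6.10 to 6.56) in the control library, a difference of -0.442 percentage points (-0.790 to -0.0916). In other protein-coding genes their share was 3.21% in the cold library and 3.40% in the control library. Transcripts annotated for nonsense-mediated decay, a route by which some ribosomal proteins limit their own mRNA, took 3.40% in the cold library and 3.60% in the control library, a difference of -0.206 points (-0.473 to 0.0634). Of 366 transcripts of the 78 members, the interval of the difference in share excluded 0 for 14, or 3.83%, in 11 members. Over the transcripts of all genes that reach 100 reads in both libraries it did so for 6.42% of 4252, and among genes in the members' range of reads for 5.71% of 2942, so that the share of such differences was no higher in the members. In 29 members the main transcript took at least 90% of reads in both libraries.

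Rps24 (chromosome 14, 24487125 to 24496959) had the largest difference of a transcript's share and is described for that size. Its mRNAs share the first coding exons and differ after the exon that ends at base 24493493, where short exons are used or skipped. In the 3 main forms the last 12 bases of that exon are followed by the bases in capitals, which set where the reading frame stops.
Rps24-205 (chr14:24493482-24493493, then chr14:24494052-24494069, plus strand): gctggcaaaaagAAATGAAATACCTAGCAG
Rps24-202 (chr14:24493482-24493493, then from chr14:24495430-24495449, plus strand): gctggcaaaaagTGAGTGGAGATTGGATAC
Rps24-210 (chr14:24493482-24493493, then from chr14:24495775-24496959, plus strand): gctggcaaaaagCCAAAGGAGTAGATCTGC

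In Rps24-205 the frame ends 6 bases after the junction, stop codon included, within an exon of 18 bases. In Rps24-202, which skips that exon and goes on to an exon of 20 bases, it ends after 3 bases, and in Rps24-210, which skips both, after 12. Rps24-210 also has a last exon of 1185 bases where the other 2 forms end after 71. It had 66 reads in the cold library and 44 in the control library, or 16.5% of the gene's reads (13.0 to 20.6) in the cold library and 6.29% (4.60 to 8.35) in the control library, a difference of 10.3 percentage points (6.35 to 14.5). Rps24-205, the main form, had 270 reads in the cold library and 537 in the control library. Its share was 67.7% (62.8 to 72.2) in the cold library and 76.7% (73.4 to 79.8) in the control library. Rps24-202 had 45 cold and 95 control reads, 11.3% of the gene's reads in the cold library and 13.6% in the control library. Scaled, Rps24-210 was 1.85-fold higher (1.24 to 2.77) while Rps24-205 was 1.61-fold lower (1.39 to 1.87), so the lower sum of Rps24 rested on the forms with short exons. Rps24-205 and Rps24-202 differ by an exon of 18 bases, while Rps24-210 differs from both by its last exon, and the sources used here do not give the rule for reads that match more than 1 transcript.

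**Figure D4:**
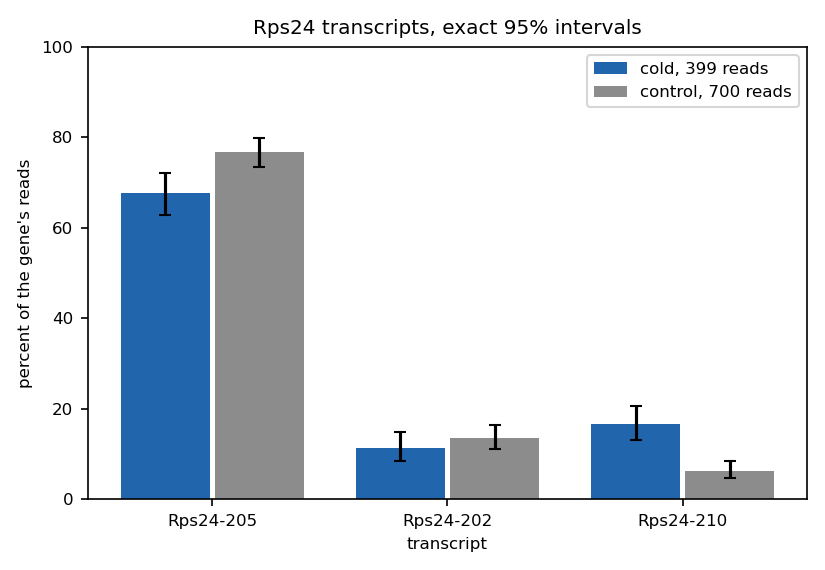
Bars give the percent of Rps24 reads on its 3 main transcripts in the cold (blue) and control (grey) library, with exact 95% intervals as whiskers. Rps24-210 stands at 16.5% in the cold library and 6.29% in the control library, and their intervals do not overlap.

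Differences in other members were smaller and are given as values only. Rps7-201, the main form of the small subunit protein Rps7, took 90.7% of the gene's reads (87.0 to 93.7) in the cold library and 83.3% (79.1 to 87.0) in the control library. Rps7-203, which has 1 exon less, took 8.31% in the cold library and 13.7% in the control library. Rpl15-201, the shorter of the main forms of Rpl15, took 25.1% (20.8 to 29.9) in the cold library and 19.3% (15.9 to 23.1) in the control library. For Rpl12, Rpl34 and Rpl14 the largest differences were -7.05, -6.22 and 5.78 percentage points, with intervals that included 0. The Rpl12 form was Rpl12-207, which retains an intron and took 21.0% of reads in the cold library and 28.0% in the control library.

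Ribosomal protein genes have many processed copies in the genome. Reads were listed for 20 pseudogenes that share at least 90% of their 31-base words with a member, and they took 0.407% (0.340 to 0.484) of copy and member reads in the cold library and 0.470% (0.408 to 0.540) in the control library. Most of these belonged to Rpl5, whose copies took 34.8% of the joint reads in the cold library and 37.3% in the control library, and to Rpl12, with 38 copy reads in the cold library and 44 in the control library. A further 5 genes that are not annotated as pseudogenes but match a member as closely, among them Rps12-ps3 with 126 cold and 161 control reads, Rps27rt with 95 cold and 163 control reads and Rpl10-ps3 with 99 cold and 112 control reads, held 1.20% of the joint reads in the cold library and 1.19% in the control library. Rps12 itself had 239 reads in the cold library and 364 in the control library. Values of Rpl5, Rpl12, Rps12, Rps27 and Rpl10 are uncertain for that reason, since each has copies that hold a large part of the joint reads. With all close copies merged, the ratio was 0.731 (0.627 to 0.852) for Rps27, 0.859 (0.750 to 0.983) for Rps12 and 1.17 (1.02 to 1.33) for Rpl10, each on the same side of 1 as without merging. For Rpl12 the log2 ratio was -0.22 with copies merged and -0.28 without, where the interval of its ratio reached up to 0.998. The merged interval of Rpl12 and the merged ratio of Rpl5 are not given here. The number of members with an interval below a ratio of 1 stayed at 32, which does not show whether the calls of Rpl5 and Rpl12 held.

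Of 9 further genes that the symbol rule leaves out, ribosomal proteins, close copies of them and Rps19bp1, which encodes a protein that binds Rps19, 3 had intervals below a ratio of 1 and 0 above, with a median log2 ratio of -0.13 (0.05 with total counts). Fau, whose product is a ubiquitin-like protein fused to a small subunit protein, had 348 cold and 523 control reads, a ratio of 0.821 (0.714 to 0.941). Rps3a1 had 287 cold and 361 control reads, a ratio of 0.980 (0.837 to 1.15), and Rack1, a signalling scaffold on the small subunit, 294 cold and 326 control reads, a ratio of 1.11 (0.947 to 1.31).

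Genes that work beside the ribosome were compared in the same way, each by counts and medians and read against the 11.3% of all genes with intervals below and the 11.3% above a ratio of 1. Mitochondrial ribosomal proteins were taken by symbol alone, as protein-coding genes named Mrpl or Mrps with a number and at most a trailing letter. Whether each of them, Mrps36 included, encodes a part of the mitochondrial ribosome was not checked. The 78 genes with at least 20 reads had a median log2 ratio of -0.09 (0.09 with total counts), with 8 intervals below and 2 above. Mrps36 had 506 reads in the cold library and 704 in the control library, a ratio of 0.886 (0.789 to 0.995), and Mrpl42 401 cold and 515 control reads, a ratio of 0.960 (0.841 to 1.10). The lowest was Mrps6 with 48 cold and 118 control reads, 1.99-fold lower (1.41 to 2.85), and the highest Mrps5 with 97 cold and 83 control reads, 1.44-fold higher (1.06 to 1.96).

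Elongation factors and other mRNAs known to carry TOP tracts had a median log2 ratio of 0.07 over 20 genes (0.25 with total counts), with 5 intervals below and 3 above a ratio of 1. Eef1a1, which brings aminoacyl-tRNA to the ribosome, had 1896 reads in the cold library and 2690 in the control library, a ratio of 0.869 (0.819 to 0.922). Tpt1 had 1625 cold and 1871 control reads, a ratio of 1.07 (1.00 to 1.15). Eif3f, a subunit of an initiation factor, was the lowest at 0.651 (0.495 to 0.852) on 85 cold and 161 control reads, and Eif3m the highest at 1.41 (1.03 to 1.95) on 86 cold and 75 control reads. The 26 other initiation factors had a median of 0.22 (0.40 with total counts), with 3 intervals above and 0 below a ratio of 1. Eif1, which helps to find the start codon, had 1098 reads in the cold library and 1161 in the control library, a ratio of 1.17 (1.07 to 1.27). Eif2b5, of the exchange factor that recharges eIF2, was highest at 1.89 (1.19 to 3.05) on 49 cold and 32 control reads.

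Genes of ribosome assembly had a median of 0.19 (0.37 with total counts) over 29 of 34 listed genes, with 3 intervals above and 2 below a ratio of 1. Nop10, of the complex that makes pseudouridine in rRNA, had 131 reads in the cold library and 237 in the control library, 1.47-fold lower (1.18 to 1.83). Rrp1 had 52 cold and 40 control reads, 1.60-fold higher (1.04 to 2.48). Polr1d, a subunit shared by RNA polymerases I and III, was the most abundant, with 242 cold and 341 control reads and a ratio of 0.875 (0.739 to 1.03).

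Among 16 genes of TOR signalling and TOP mRNA binding the median was -0.10 (0.08 with total counts), with 4 intervals below and 2 above a ratio of 1. Eif4ebp1, the repressor of cap-dependent initiation that TOR inactivates, had 133 reads in the cold library and 367 in the control library, 2.24-fold lower (1.83 to 2.75). Rps6kb1, the kinase of the ribosomal protein Rps6, had 14 cold and 36 control reads, 2.09-fold lower (1.10 to 4.19). Deptor, an inhibitor of TOR, had 155 cold and 301 control reads, 1.57-fold lower (1.29 to 1.92). Ddit4, also of this list, lay on the higher side at a ratio of 2.11 (1.05 to 4.42) on 24 cold and 14 control reads. Mtor itself had 137 cold and 132 control reads, a ratio of 1.28 (1.00 to 1.64), and Akt2, the most abundant gene of the list, 317 cold and 443 control reads, a ratio of 0.882 (0.762 to 1.02). Of the host genes of small nucleolar RNAs, several of which also carry TOP tracts, 6 of 17 had at least 20 reads. All 6 had log2 ratios below 0, with a median of -0.56, and all 6 intervals included a ratio of 1. Gas5 had 30 reads in the cold library and 57 in the control library, a ratio of 0.649 (0.403 to 1.03).

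**Figure D5:**
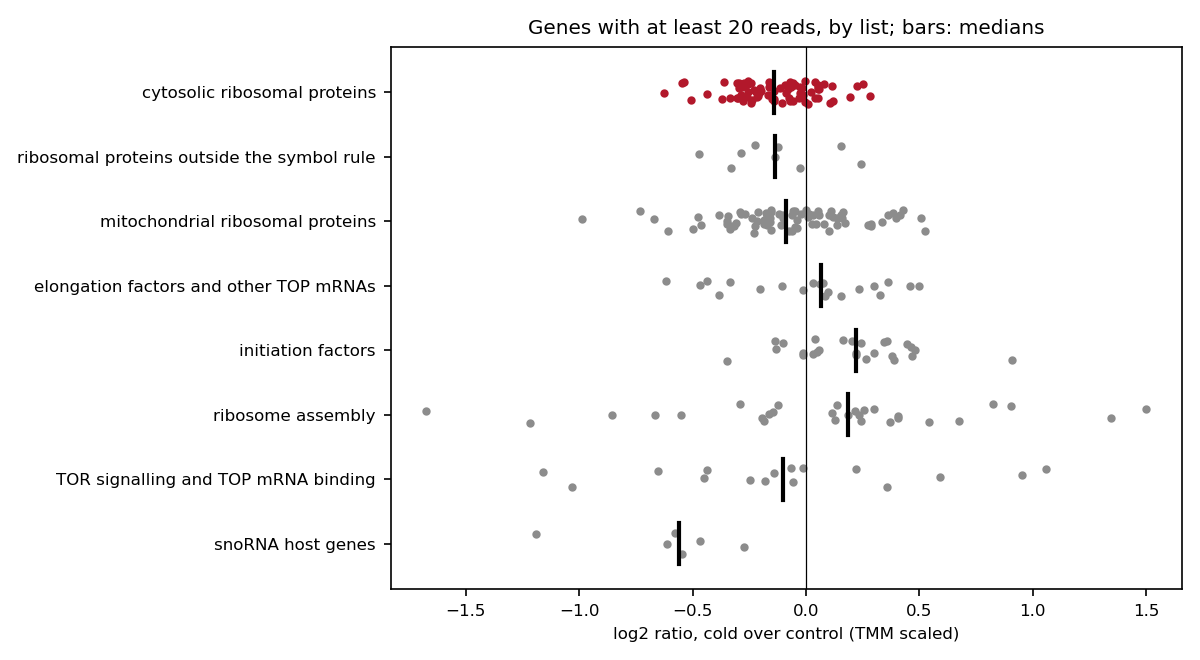
Each point is a gene with at least 20 reads, placed by its log2 ratio of cold over control after TMM scaling, and black bars are medians of the list. The cytosolic ribosomal proteins (red) have a median of -0.14, mitochondrial ribosomal proteins -0.09 and initiation factors 0.22. With total counts the first 2 of these turn to 0.04 and 0.09.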

How the data were processed

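Counts of reads per transcript were made by the authors and deposited without normalization, per the file values, which are whole numbers of at least 1. The submitters' processing notes name minimap2 and GRCm38, while versions, annotation release and counting rule were not stated in them. The library kit was SQK-RNA002 on 500 ng of poly(A)+ RNA, per the labels' protocols.

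Transcripts were joined by identifier to GENCODE M21 (GRCm38), from which coordinates come, counted from 1. Unmatched transcripts held 0.0652% of cold and 0.0571% of control reads. Reads were summed to genes. The ratio of scaled counts used edgeR 4.0.16 TMM factors (1.06 and 0.940 for the cold and control libraries), log2 ratios a prior of 0.5 reads, and intervals the 95% exact (Clopper-Pearson) limits of the share of reads that were cold. Shares have exact binomial intervals and their differences Newcombe intervals. All cover counting error only. Genes under 20 summed reads, and transcript shares of members under 100 reads in either library, were left out of counts and medians; the paralogs Rpl3l and Rpl39l are described below that limit. DESeq2 1.42.0 size factors and other alternatives are given in the closing section. The ratio and its interval were tried on simulated Poisson counts with known library sizes. Those counts had no TMM step and no spread between animals, so the trial covers counting error only.

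Members, lists and tests were chosen with earlier results of these data known. Named were members by rule: the 6 highest and 6 lowest ratios (at least 100 reads), the 8 with most reads, the stalk genes and Rpsa, paralog pairs, the 6 with the largest transcript share differences, and per list the 2 highest, 2 lowest and 2 most abundant genes with at least 50 reads, of which the text describes a part. Rpl5, Rps12, Rps12-ps3, Rps27rt, Rpl10-ps3, Rps19bp1, Deptor and Ddit4 were named after their values were seen. Values of some genes are not reported here.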

Additional observations from a re-analysis of the deposited data

How the results depend on the processing

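The median log2 ratio of the members, -0.14, was -0.17 with DESeq2 size factors and -0.0078 with totals that leave out mitochondrially encoded genes, and turned to 0.040 with total counts. The large subunit's median turned to 0.029 with total counts and was -0.019 without mitochondrially encoded genes. The small subunit's turned to 0.065 and 0.018 with these scalings. Relative to other genes with transcripts of at most 1000 bases, a choice made after seeing the data, the members' median was -0.0067. The 32 intervals below a ratio of 1 became 6 with total counts and 7 without mitochondrially encoded genes, and the 4 above became 17 and 8. The single member at least 1.5-fold lower became 0 with both of these scalings, and 3 members were so from their most abundant transcript alone. With at least 1 summed read, 1 member (Rpl3l) was at least 1.5-fold higher in place of 0. Of the named members, Rpl41 turned to a log2 ratio of 0.014 with total counts, against -0.17. The difference in read share turned to -0.00248 percentage points outside mitochondrially encoded genes. With an 80% limit on shared words, processed copies took 0.566% of copy and member reads in the cold library and 0.636% in the control library. List medians with total counts were 0.045 for ribosomal proteins outside the symbol rule, 0.077 for TOR signalling and 0.092 for mitochondrial ribosomal proteins, all 3 turned in sign, and 0.25 for elongation factors, 0.40 for initiation factors and 0.37 for ribosome assembly. Total counts moved the median of all genes up by 0.18, and totals without mitochondrially encoded genes by 0.13, so these turns follow from the construction of the scalings. Merging processed copies with their members whatever their annotation, and a minimum of 100 reads left the members' median at -0.14. Merging copies not annotated as pseudogenes, the background over transcript shares, the background of genes in the members' range of reads and the search within 5 bases of the start were also chosen after seeing the data. No paired analysis was possible because there was 1 library per group, and no replicate could be left out. Depth limits single members. Rpl5, with 295 reads the fewest when its close copies are left out, had a ratio of 0.846 with an interval of 0.665 to 1.07.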
